A study of Mus musculus with 6 samples.

Results

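The 8 genes described here encode proteins that bind cytokine messenger RNA and set how fast it is degraded: Zfp36, Zfp36l1, Zfp36l2, Zc3h12a, Zc3h12d, Rc3h1, Rc3h2 and Elavl1. They were chosen by gene symbol, with earlier results of these data known, and so were the lists of other genes below. All 8 were found among the 18543 genes of the count table. All 8 passed the filter on low counts. The series measured messenger RNA of group 2 innate lymphoid cells (ILC2s) sorted out of the lungs of mice: 3 libraries carry the label wild type (WT 1 to WT 3) and 3 the label Atg5-/- (KO 1 to KO 3). Donor mice of both genotypes were C57BL/6, were 8 weeks old, and had received 0.5 µg of recombinant IL-33 into the nose on 3 days in a row, with cells taken on day 4. Untreated mice are not part of the comparison, so every level is that of IL-33-stimulated cells. The labels do not name the promoter of a Cre or the tissues that lack Atg5, nor how mice map to libraries. The p-values therefore measure only the spread between these libraries, which may be technical. WT and KO below stand for the labels alone.

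Cytokine transcripts carry short recognition elements in the untranslated region after the stop codon (3′ UTR), and the 8 proteins act through them. Tristetraprolin (Zfp36) and its relatives Zfp36l1 and Zfp36l2 bind AU-rich elements through zinc fingers and recruit the CCR4-NOT complex, which removes the poly(A) tail. Regnase-1 (Zc3h12a) is an endonuclease that cuts transcripts at small stem-loops, and Zc3h12d encodes its relative Regnase-4. Roquin-1 (Rc3h1) and Roquin-2 (Rc3h2) bind similar stem-loops and bring in the deadenylation machinery. HuR (Elavl1) also binds AU-rich elements but is best known for stabilizing the transcripts it binds. In lymphocytes the members that promote decay are known to limit cytokine output after activation, and Regnase-1 is known to restrain ILC2s.

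The elements are shown here because they tie the decay factors to the target transcripts described further on. They were searched on the sense strand of 1 annotated 3′ UTR for each of 21020 genes (GENCODE vM21 on mm10). The AU-rich nonamer TTATTTATT, which contains the heptamer TATTTAT, was present in 7.19% of all 3′ UTRs and the heptamer in 26.2%. Of the 8 decay factors, 6 had the nonamer in their own 3′ UTR. Among 3′ UTRs of similar length the share with it was higher for the long ones, from 4.31% for Zfp36 to 18.4% for Elavl1, 22.2% for Rc3h2 and 29.1% for Rc3h1. Capitals mark the nonamer in the sites below, which are read 5′ to 3′. Those of the tristetraprolin family come first, and those of targets whose levels are given later follow.
Zfp36, chr7:28376951-28376979, reverse strand: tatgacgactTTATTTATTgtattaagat
Zfp36l1, chr12:80108167-80108195, reverse strand: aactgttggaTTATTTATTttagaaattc
Zfp36l2, chr17:84184914-84184942, reverse strand: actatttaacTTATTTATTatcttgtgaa
Csf2, chr11:54247329-54247357, reverse strand: ttttaaatatTTATTTATTtatttattta
Il13, chr11:53631741-53631769, reverse strand: cttcttgatcTTATTTATTatggttgtgt
Ptgs2, chr1:150105790-150105818, forward strand: ctgaccatatTTATTTATTtatgtgaaga
Csf2 held 4 overlapping copies of the nonamer in a 3′ UTR of 317 bases, against 2.34% of 3′ UTRs of similar length with any copy, while Il13 and Ptgs2 held 1 each.

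For Regnase-1 and Roquin, the search took a loop of TAT or TGT closed by at least 6 Watson-Crick pairs. It was held by 3.84% of all 3′ UTRs and by 3 of the 8 decay factors (Zc3h12a, Rc3h1 and Rc3h2). Among 3′ UTRs of similar length the share was 3.41% for Zc3h12a, 17.9% for Rc3h1 and 12.9% for Rc3h2. A match of letters is a description and not a shown binding site. Stems with other pairs, bulges or mismatches were not searched for, so a 3′ UTR without a match may still hold a stem-loop. Capitals mark the loop, and the letters on either side pair with each other. Nfkbiz held 2 and Rc3h1 held 4 such matches, of which 1 each is shown. Those of Rc3h1 at chr1:160969796-160969814 and chr1:160969800-160969816 overlap in a run of T and A, and are not separate sites.
Zc3h12a, chr4:125118662-125118678, reverse strand: atttaaaTATtttaaat
Rc3h1, chr1:160971660-160971674, forward strand: aacttcTGTgaagtt
Rc3h2, chr2:37373809-37373823, reverse strand: aacttcTGTgaagtt
Nfkbid, chr7:30428402-30428416, forward strand: gatttcTGTgaaatc
Nfkbid, chr7:30428430-30428444, forward strand: tgtttcTGTgaaaca
Nfkbiz, chr16:55812613-55812629, reverse strand: ttgtttcTATgaaacaa
Tnf, chr17:35199585-35199599, reverse strand: gttttcTGTgaaaac
Rel, chr11:23742028-23742042, reverse strand: aatggcTATgccatt
Tnfrsf4, chr4:156016541-156016555, forward strand: gtatgcTATgcatac
Icos, chr1:60999831-60999845, forward strand: atttccTATggaaat
Rc3h1 and Rc3h2, on different chromosomes, carried the same 15 letters, whereas the stem of Zc3h12a consisted of A and T alone. Tnfrsf4 had its loop in a 3′ UTR of only 180 bases, and 0.682% of 3′ UTRs of similar length held such an element. Zc3h12d held neither the nonamer nor the stem-loop.

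The libraries did not group by label, which touches every comparison below. Atg5, the targeted gene (chr10:44268358-44364291, forward strand), had 66.3 CPM in WT 1, 71.8 in WT 2 and 21.8 in WT 3, and 23.0 CPM in KO 1, 25.6 in KO 2 and 52.2 in KO 3. CPM are counts for every 1000000 of the library size after TMM adjustment. The library labelled WT 3 thus lay below all libraries labelled KO for Atg5, and its profile over 14052 genes correlated at r = 0.991 with KO 1 against 0.946 with WT 1, across genes that are not independent replicates. Each result is therefore given for all 6 libraries and without the library labelled WT 3. WT 3 was singled out by its values in these same data. Leaving it out narrows the spread within the WT label wherever it differed from WT 1 and WT 2. The p-values, ranks and counts of passing genes from every fit without WT 3 are conditional on that choice. Such p-values may be too small, and they are no independent test of the label. Library totals were 28827545 to 33662979 estimated counts, at which 3 counts equal 0.0891 to 0.104 CPM. The ILC2 markers Gata3 (900 to 1559 CPM), Il1rl1 (432 to 973 CPM) and Il7r (93.1 to 106 CPM) were present in all 6 libraries, and Thy1 was at 9.85 CPM or less. Without WT 3, 7 of 11 ILC2 markers fell and 1 rose (edgeR adjusted p under 0.05), where 16.1% of 14743 genes fell and 17.7% rose. Klrg1 had 526 CPM in WT 1 and 556 in WT 2, against 121 to 174 CPM in the other 4 libraries, and Id2 had 2001 and 2138 CPM against 932 to 1033 CPM.

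Markers of other cells also differed between these libraries. The summed level of 5 T cell markers (of 6 listed) was 41.6 CPM in WT 1 and 43.4 in WT 2, against 21.8 to 25.8 CPM in the other 4 libraries, and Cd3g made up 11.4 to 37.2 CPM of it. Cd3d, Cd3e, Cd4 and Trac were each at 4.41 CPM or less. Epcam, an epithelial marker, had 57.4 CPM in WT 1 and 52.3 in WT 2, against 8.90 to 14.3 CPM elsewhere. The other epithelial markers, Scgb1a1 and Krt8, were at 0 in WT 1 and WT 2, and reached 15.0 CPM in KO 2 and 0.485 CPM in KO 1. Pecam1, an endothelial marker, had 10.4 and 8.54 CPM against 92.0 to 131 CPM. Tek, another, had 0 CPM in 5 libraries and 0.734 CPM in KO 3. Myeloid markers summed to at most 4.92 CPM, granulocyte and mast cell markers to at most 12.9 CPM, NK cell markers to at most 3.01 CPM and B cell markers to at most 19.5 CPM. The part of these differences in the results that follow was not tested. In bulk RNA, fewer cells of a kind and less RNA in each cell cannot be told apart.

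For 4 of the 8 decay factors, WT 1 and WT 2 lay to one side of all other libraries. Zc3h12a and Elavl1 were higher in those other 4 libraries, and Zfp36l2 and Zc3h12d were lower. With all 6 libraries none of the 8 passed edgeR's quasi-likelihood test at an adjusted p under 0.05, where 0.0% of 14052 genes passed. Of the 8, 1 had an unadjusted p under 0.05 (Zfp36l2), against 2026 of all genes, and limma-voom and limma-trend also passed 0 of the 8. DESeq2 passed 0 of the 7 to which it gave an adjusted p, and gave none to Zc3h12a. Over all genes DESeq2 passed 323 and both limma fits 0. Without the library labelled WT 3, Zc3h12a and Elavl1 rose and Zfp36l2 and Zc3h12d fell, 4 of 8, where 33.9% of 14743 genes passed (17.7% higher and 16.1% lower). Without both libraries numbered 3 the count was again 4 of 8, where 45.4% of 14315 genes passed. In all 6 libraries, the 3 labelled KO lay entirely to one side of the 3 labelled WT for Zfp36l2 and Rc3h1, 2 of 8, against 18.5% of all genes tested. The count of 4 genes with WT 1 and WT 2 on one side and the other 4 libraries on the other compares with 57.8% of all genes. These counts are near those shares, so the number of members that differed is no result about the group, and what follows describes single genes.

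**Figure D1:**
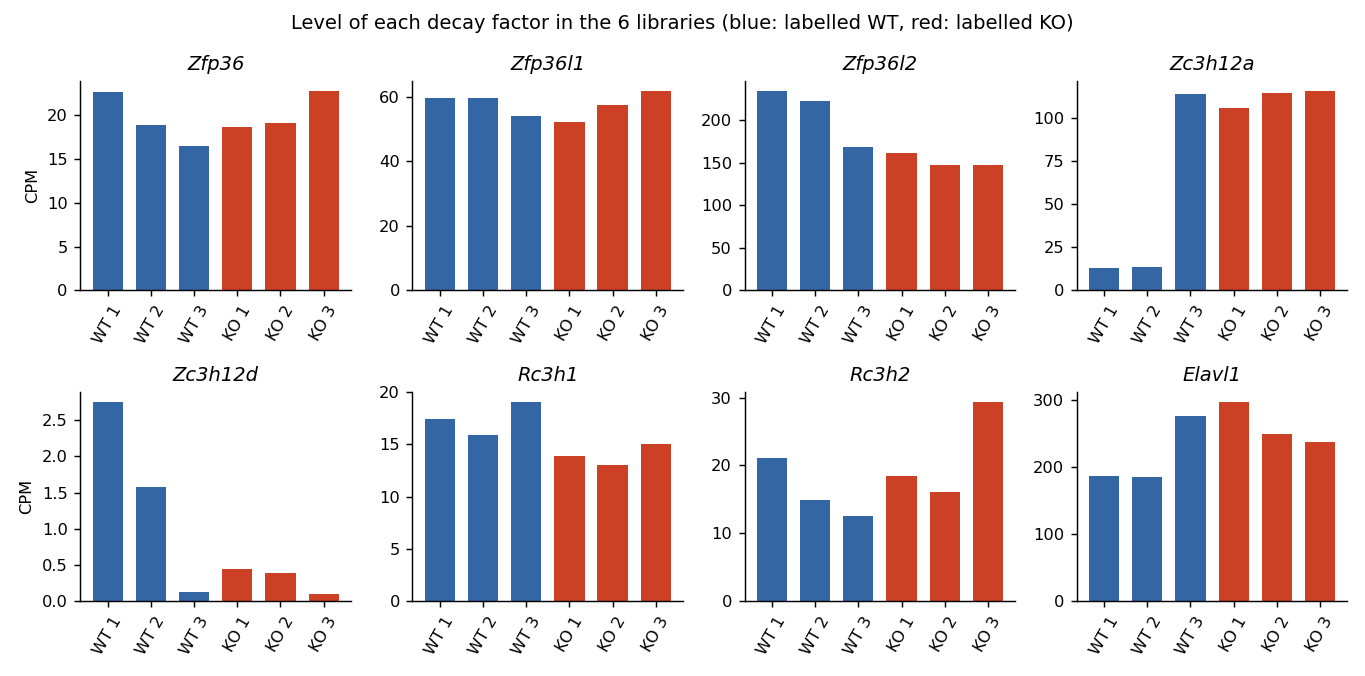
Level of each of the 8 decay factors (CPM, linear axes from 0, a scale for each gene) in the 3 libraries labelled WT and the 3 labelled KO, 1 bar a library. Zc3h12a stands at 13.0 and 13.7 CPM for WT 1 and WT 2 and at 106 to 116 CPM for the rest, and Zfp36 and Zfp36l1 show no such step.

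Zc3h12a, which encodes the endonuclease Regnase-1, had the widest range of the 8 on the scale of log2(CPM + 0.5). It has 6 exons at chr4:125118423-125127840 on the reverse strand. WT 1 had 13.0 CPM, WT 2 had 13.7 and WT 3 had 114, while KO 1 had 106 CPM, KO 2 had 115 and KO 3 had 116. The 4 high libraries lay within a narrow band, with WT 3 inside the range of the KO libraries, and no library was intermediate. The mean of the 3 libraries labelled KO was 8.40 times that of WT 1 and WT 2, and WT 3 was 8.54 times it. By label, Zc3h12a averaged 46.9 ± 58.1 CPM in WT and 112 ± 5.53 CPM in KO (SD, n = 3 each). The log2 difference over all 6 libraries was 1.26 (SE 0.82, edgeR adjusted p = 0.422). Without WT 3, Zc3h12a rose by 3.08 on the log2 scale (SE 0.11, edgeR adjusted p = 2.1e-05). In that fit, whose p-values are conditional on leaving out WT 3, Zc3h12a ranked 9 by p among 14743 genes. Of 11084 genes whose average log2 CPM reached 1, 70 had a log2 difference as large or larger, Zc3h12a included. GENCODE annotates no other gene across it.

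Zc3h12d, the gene of the related Regnase-4, went the other way at a far lower level. It lies at chr10:7832470-7870396 on the forward strand. WT 1 had 84 counts, WT 2 had 48 and WT 3 had 4, and KO 1 had 13 counts, KO 2 had 13 and KO 3 had 3. In the same order these are 2.75, 1.57, 0.133, 0.450, 0.387 and 0.0957 CPM. The 3 counts of KO 3 have an exact Poisson 95% interval of 0.619 to 8.77, which covers counting error only, and those of WT 2 one of 35.4 to 63.6. WT 1 and WT 2 were above the other 4 libraries, WT 3 among them. Without WT 3, Zc3h12d fell by 2.78 on the log2 scale (SE 0.70, edgeR adjusted p = 0.021), and over all 6 the difference was -2.24 (SE 1.06, adjusted p = 0.354).

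Within the tristetraprolin family, Zfp36l2 passed without WT 3 and its 2 relatives passed in neither fit. Zfp36l2, the most abundant of the 8 in CPM per kb of transcript in WT 1 and WT 2, lies at chr17:84183931-84187947 on the reverse strand. WT 1 had 234 CPM, WT 2 had 223 and WT 3 had 168, while KO 1 had 162 CPM, KO 2 had 148 and KO 3 had 147. All libraries labelled KO lay below all labelled WT, but WT 3 was nearer to KO 1 than to WT 2. The log2 difference was -0.45 (SE 0.16, edgeR adjusted p = 0.342) over all 6 libraries, from 208 ± 35.5 CPM to 152 ± 8.24 CPM (SD, n = 3 each). Leaving out WT 3, Zfp36l2 fell by 0.58 in log2 (SE 0.09, edgeR adjusted p = 0.00257). An antisense transcript overlaps exons of Zfp36 and another those of Zfp36l2, and their levels are not analysed here.

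Zfp36, the gene of tristetraprolin itself (chr7:28376784-28380253, reverse strand), had 22.7, 18.8 and 16.4 CPM in WT 1 to WT 3, and 18.7, 19.1 and 22.7 CPM in KO 1 to KO 3. The groups overlapped fully, and the log2 difference was 0.06 (SE 0.19, edgeR adjusted p = 0.866) with all 6 libraries and -0.03 (SE 0.17, adjusted p = 0.903) without WT 3. Zfp36l1 (chr12:80107754-80113013, reverse strand) had the narrowest range of the 8 on a log scale, with 59.7, 59.5 and 53.9 CPM in WT 1 to WT 3, and 52.2, 57.3 and 61.7 CPM in KO 1 to KO 3. Its log2 difference was -0.02 (SE 0.13, adjusted p = 0.954), and -0.06 (SE 0.11, adjusted p = 0.749) without WT 3. Zfp36l1 shares its locus with the antisense Gm26669, which had at most 0.623 CPM. The sources used here do not say whether counting used strand.

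The Roquin genes did not pass in either fit. Rc3h1 (chr1:160906418-160974978, forward strand) had 17.4, 15.8 and 19.1 CPM in WT 1 to WT 3, and 13.9, 13.0 and 15.1 CPM in KO 1 to KO 3. Here WT 3 was the highest of all 6 libraries, unlike in the other 7 genes, and all KO libraries lay below all WT libraries, by less than 1 CPM at the nearest. The log2 difference of Rc3h1 was -0.32 (SE 0.18, edgeR adjusted p = 0.378) with all 6 libraries and -0.24 (SE 0.17, adjusted p = 0.327) without WT 3. Rc3h2 (chr2:37370069-37422903, reverse strand) had 21.1, 15.0 and 12.5 CPM in WT 1 to WT 3, and 18.4, 16.1 and 29.4 CPM in KO 1 to KO 3. KO 3 stood above the other 5 libraries, and the groups overlapped. Its log2 difference was 0.39 (SE 0.30, adjusted p = 0.488) with all 6 libraries and 0.24 (SE 0.30, adjusted p = 0.577) without WT 3.

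Elavl1, which encodes the stabilizing protein HuR, lies on chromosome 8 from 4285382 to 4325413 on the reverse strand. WT 1 had 186 CPM, WT 2 had 184 and WT 3 had 275, while KO 1 had 297 CPM, KO 2 had 249 and KO 3 had 237. WT 1 and WT 2 were the lowest, and WT 3 lay within the range of the KO libraries. The log2 difference over all 6 was 0.28 (SE 0.20, edgeR adjusted p = 0.469), and without WT 3 Elavl1 rose by 0.50 in log2 (SE 0.12, adjusted p = 0.015). Exons of Ccl25 on the other strand overlap it, and Ccl25 had 4.47 to 9.92 CPM.

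**Figure D2:**
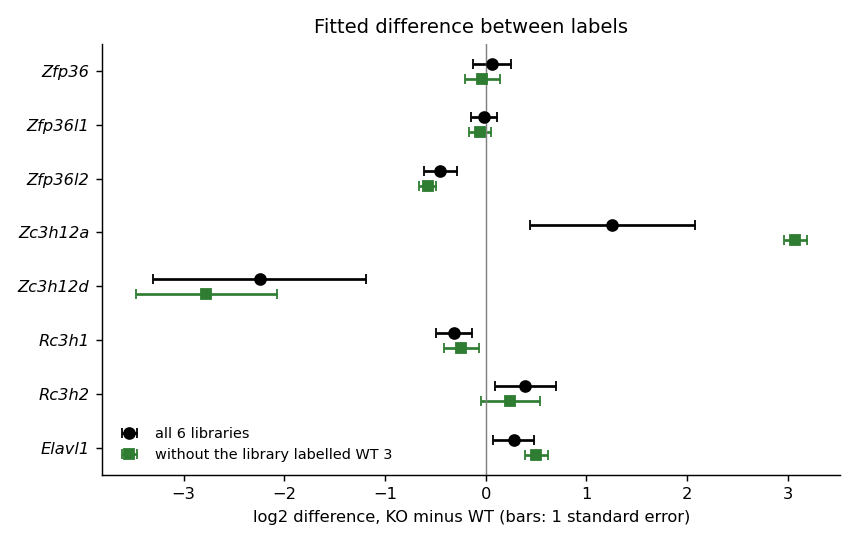
Fitted log2 difference, KO minus WT, of each decay factor with 1 standard error either side, from all 6 libraries (circles) and without the library labelled WT 3 (squares). Zc3h12a moves from 1.26 to 3.08 and its standard error from 0.82 to 0.11 when WT 3 is left out.

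Scaled by transcript length, the make-up of the 8 transcripts differed between the same libraries. In CPM per kb, the order in WT 1 and WT 2 was Zfp36l2, Elavl1, Zfp36l1, Zfp36, Zc3h12a, Rc3h2, Rc3h1 and Zc3h12d. In the other 4 libraries Elavl1 came first and Zfp36l2 second, and Zc3h12a had moved from rank 5 to rank 3. Among those 4 libraries the neighbours Elavl1, Zfp36l2 and Zc3h12a overlapped, at 41.3 to 51.7, 41.8 to 47.6 and 38.4 to 42.1 CPM per kb. Rc3h2 and Rc3h1 also overlapped there, at 1.42 to 3.34 and 1.18 to 1.73 CPM per kb. Zc3h12a made up 3.47% and 3.82% of the summed CPM per kb of the 8 genes in WT 1 and WT 2, then 25.2% in WT 3 and 23.5%, 26.7% and 26.5% in KO 1, KO 2 and KO 3. The 3 tristetraprolin family genes together made up 69.3% and 68.9% in WT 1 and WT 2, against 42.8% to 44.5% in the other 4. The ratio of Zc3h12a to Zfp36l2 per kb was 0.0712 and 0.0788 in WT 1 and WT 2 and 0.838 to 1.01 elsewhere. The sum over the 8 genes was 136 and 130 CPM per kb in WT 1 and WT 2 and 156 to 164 CPM per kb in the other 4 libraries. Shares of one sum are not independent of each other, so these are descriptions with no test.

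**Figure D3:**
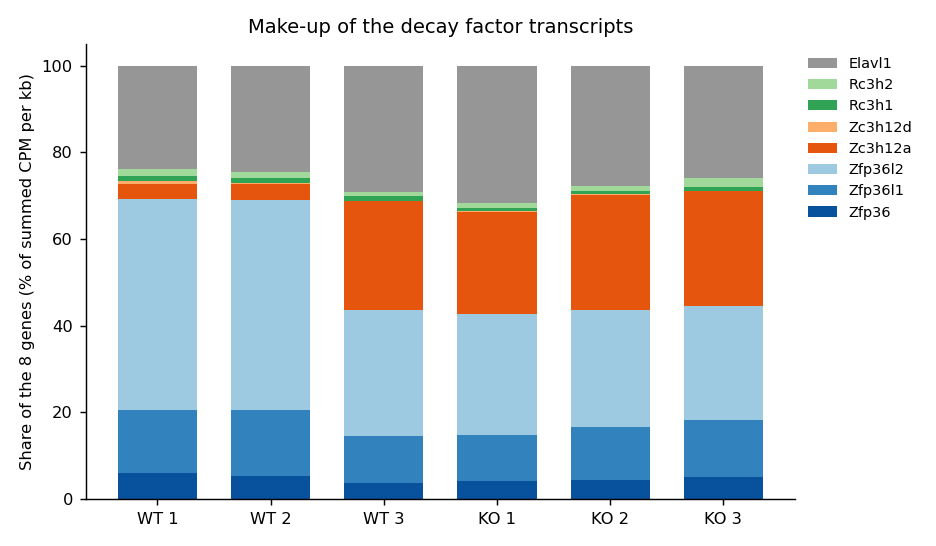
Share of each decay factor in the summed CPM per kb of the 8 genes (%, stacked bars) in each library. The Zc3h12a segment is 3.47% and 3.82% in WT 1 and WT 2 and 23.5% to 26.7% in the other 4 libraries, while the Zfp36l2 segment is 48.7% and 48.4% in WT 1 and WT 2 and 26.3% to 29.0% elsewhere.

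By root-mean-square distance of centred log2(CPM + 0.5) over the 6 libraries, among 10297 genes, the patterns nearest to Zc3h12a included those of Hacd3 (0.10) and Timmdc1 (0.13). Hacd3 encodes an enzyme that elongates very long chain fatty acids. It had 171 CPM in WT 1 and 184 in WT 2, against 1239 to 1332 CPM in the other 4 libraries. Nearest to Zc3h12d were Rasa4 (0.14), Lyst (0.18) and Man2a2 (0.20). Rasa4, a GTPase-activating protein for Ras, had 56.9 CPM in WT 1 and 47.2 in WT 2, against 10.0 to 16.8 CPM elsewhere. The pseudocount of 0.5 is above the level of Zc3h12d in 4 libraries, so its distances depend on it.

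Relatives of the 8 and other proteins that bind the same kinds of element also included members on both sides. Of 17 listed genes, 13 were tested. Over all 6 libraries 0 passed, and without WT 3, 3 rose and 2 fell, 38.5% of them against 33.9% of all genes, with a median log2 difference of 0.13 against 0.02 over all genes tested. Zc3h12c, which encodes Regnase-3, had 4.06, 3.70 and 10.6 CPM in WT 1 to WT 3, and 10.7, 12.6 and 19.7 CPM in KO 1 to KO 3. It rose by 1.89 on the log2 scale (SE 0.32, edgeR adjusted p = 0.00396) without WT 3, in the direction of Zc3h12a and not of Zc3h12d. Arid5a, known to protect Il6 transcripts from Regnase-1, had 160 CPM in WT 1 and 172 in WT 2, against 213 to 278 CPM in the other 4 libraries, and rose by 0.52 (SE 0.13, adjusted p = 0.0213). Khsrp, which promotes decay of AU-rich transcripts, was at 87.7 and 82.6 CPM against 33.1 to 51.8 CPM and fell by 0.96 (SE 0.18, adjusted p = 0.00686). The other 2 calls, named after their values were seen, were Hnrnpd (AUF1), which rose by 0.64 (SE 0.14, adjusted p = 0.0123), and Nynrin, which fell by 3.63 (SE 1.16, adjusted p = 0.0492) and had 0 counts in KO 3, where 3 counts are the floor. DESeq2 without WT 3 did not pass Nynrin (adjusted p = 0.168). Pum2 had 41.1 CPM in WT 1 and 44.8 in WT 2, against 32.1 to 39.9 CPM elsewhere (-0.28, SE 0.14, adjusted p = 0.168 without WT 3).

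The machinery that the binding proteins recruit was tested as 42 genes of 43 listed. Again 0 passed over all 6 libraries, and without WT 3, 16 rose and 4 fell, 47.6% against 33.9% of all genes, with a median log2 difference of 0.16. A split by complex was made after the values were seen. In it, log2 differences of the 3′-to-5′ RNA exosome genes ran from 0.38 for Exosc9 (SE 0.11) to 1.38 for Exosc2 (SE 0.17). Exosc6 was listed but is not in the count table. All 10 tested genes of that set, the nuclease gene Dis3 included, rose, where 33.9% of all genes passed. That count rests on the split: Dis3l, another exosome nuclease of the same list, did not pass (0.01, SE 0.13, edgeR adjusted p = 0.976). The exosome cofactor Skiv2l fell by 0.52 (SE 0.10, adjusted p = 0.00638). Of its partners in the list, Wdr61 rose by 0.40 (SE 0.09, adjusted p = 0.0162) and Ttc37 did not pass (0.23, SE 0.16, adjusted p = 0.325). Exosc3 had 66.2, 71.2 and 121 CPM in WT 1 to WT 3, and 138, 139 and 118 CPM in KO 1 to KO 3. Exosc4 had 64.1, 63.2 and 95.4 CPM in WT 1 to WT 3, and 99.1, 107 and 102 CPM in KO 1 to KO 3, and rose by 0.70 (SE 0.09, edgeR adjusted p = 0.0015). As background, the exosome also processes ribosomal RNA.

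Of 11 CCR4-NOT subunits, 1 rose (Cnot11, by 0.35, SE 0.11) and 2 fell (Cnot6 and Cnot6l) without WT 3, 27.3% against 33.9% of all genes. Parn, a deadenylase outside that complex, rose by 0.83 (SE 0.10, edgeR adjusted p = 0.000943). Cnot6l, a catalytic deadenylase subunit, had 85.4, 74.3 and 17.8 CPM in WT 1 to WT 3, and 19.8, 13.4 and 17.2 CPM in KO 1 to KO 3. It fell by 2.24 on the log2 scale (SE 0.18, edgeR adjusted p = 0.00021) without WT 3, while its paralogue Cnot6 fell by 0.37 (SE 0.10, adjusted p = 0.0262). Over all 6 libraries Cnot6l had a log2 difference of -1.82 (SE 0.54, edgeR adjusted p = 0.342), and DESeq2 passed it there (adjusted p = 0.0314). Btg2, an antiproliferative protein that binds the CCR4-NOT deadenylases, was at 108 and 111 CPM against 27.9 to 40.2 CPM in the other 4 libraries and fell by 1.70 (SE 0.16, adjusted p = 0.000338). Of 8 decapping factors, Dcp1a and Edc3 rose and 6 did not pass, 25% against 33.9% of all genes.

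**Figure D4:**
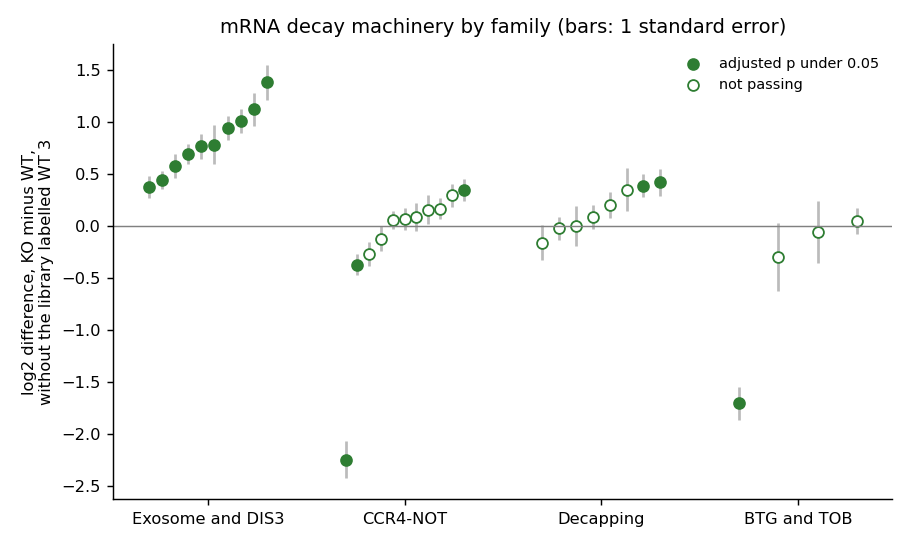
Log2 difference, KO minus WT, without the library labelled WT 3, for 33 mRNA decay genes in 4 families, with 1 standard error either side. Filled points passed at an adjusted p under 0.05: all 10 exosome points are above 0, while Cnot6l and Btg2 are the lowest points at -2.24 and -1.70.

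Of 17 genes that act on the 8 proteins, 4 passed without WT 3. Kinases and proteases control Regnase-1 and tristetraprolin after translation, which messenger RNA does not show. Of these genes 0 passed with all 6 libraries, and without WT 3, 1 rose (Ppp2r1a, by 0.26, SE 0.08) and 3 fell (Irak4, Malt1 and Dusp1), 23.5% against 33.9% of all genes, with a median log2 difference of -0.04. Without both libraries numbered 3, 10 of the 17 passed, where 45.4% of all genes passed, and DESeq2 without WT 3 passed 7. Malt1, the protease that cleaves Regnase-1 and Roquin, had 22.5, 18.6 and 11.5 CPM in WT 1 to WT 3, and 15.0, 9.64 and 12.2 CPM in KO 1 to KO 3. It fell by 0.74 on the log2 scale (SE 0.23, edgeR adjusted p = 0.0439) without WT 3. Irak4, a kinase of IL-33 receptor signalling, was at 31.6 and 37.7 CPM against 21.9 to 24.0 CPM and fell by 0.58 (SE 0.14, adjusted p = 0.0186). Mapk14 (p38α, log2 difference -0.26, SE 0.09) and Tbk1 (-0.20, SE 0.08) had adjusted p of 0.0704 and 0.102 in the same fit and did not pass. DESeq2 passed both without WT 3 (adjusted p = 0.0304 and 0.0407), as did edgeR without both libraries numbered 3 (0.0328 and 0.0497). Mapkapk2, the kinase that phosphorylates tristetraprolin, was between 327 and 349 CPM in all 6 libraries.

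Of the known targets of the tristetraprolin family, 8 were higher and 1 lower in the fit without WT 3. The list of 18 was drawn up with earlier results of these data known. Of it, 13 were tested, and with all 6 libraries 0 passed. These 9 are 69.2% against 33.9% of all genes, and the median log2 difference was 1.29 against 0.02 over all genes tested. By limma-voom without WT 3, 7 passed. Il6, which is also a Regnase-1 target, had 2.03, 1.31 and 55.2 CPM in WT 1 to WT 3, and 69.0, 57.8 and 96.3 CPM in KO 1 to KO 3. The KO mean was 44.5 times the mean of WT 1 and WT 2, and Il6 rose by 5.48 on the log2 scale (SE 0.33, edgeR adjusted p = 8e-05) without WT 3. Over all 6 libraries the log2 difference of Il6 was 1.93 (SE 1.27, edgeR adjusted p = 0.426). Ptgs2, the inducible cyclooxygenase, had 23 counts in WT 1, 0 in WT 2 and 2009 in WT 3, and 1923, 2244 and 8972 counts in KO 1 to KO 3. It rose without WT 3 by edgeR (adjusted p = 0.00792) but did not pass by limma-voom (adjusted p = 0.204). The 0 counts of WT 2 have an exact Poisson 95% interval of 0 to 3.69, which covers counting error only.

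Tnf had 17.2, 17.3 and 42.0 CPM in WT 1 to WT 3, and 43.8, 42.5 and 40.0 CPM in KO 1 to KO 3, and rose by 1.29 (SE 0.13, edgeR adjusted p = 0.000433) without WT 3. Myc rose by 2.24 (SE 0.17, adjusted p = 0.000189), Csf2 by 1.42 (SE 0.10, adjusted p = 0.000133), Il13 by 1.66 (SE 0.15, adjusted p = 0.000305) and Ier3 by 0.38 (SE 0.12, adjusted p = 0.047). Ccl3, at 3 and 0 counts in WT 1 and WT 2 and 15 to 55 in the other 4 libraries, was the remaining gene that rose (adjusted p = 0.0408), and limma-voom did not pass it (adjusted p = 0.0719). Fos fell, from 19.5 and 20.3 CPM in WT 1 and WT 2 to 3.54 to 9.86 CPM in KO 1 to KO 3, with 3.65 CPM in WT 3 (log2 difference -1.77, SE 0.43, adjusted p = 0.018). Il5, Cxcl2, Lif and Il2 did not pass. Of the 8 tested targets that hold the nonamer in the 3′ UTR, 4 rose and 1 fell, and of the 5 that do not, 4 rose. Over all genes in that fit, 17.7% rose and 16.1% fell. The shorter heptamer was held by 12 tested targets, of which 7 rose and 1 fell, and was absent only from Myc, which rose. Targets that rose were found both with and without the nonamer, but those without it, other than Myc, held the heptamer.

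Regnase-1 and Roquin targets, 11 tested of 12 listed, went both ways. This list, too, was drawn up with earlier results of these data known. None of the 11 passed over all 6 libraries. Without WT 3, 6 rose and 2 fell, 72.7% against 33.9% of all genes, with a median log2 difference of 1.29, and Il6, Il2 and Tnf belong to both lists of targets. Nfkbiz, an inhibitor-of-NF-kappaB family protein, had 37.5, 35.1 and 151 CPM in WT 1 to WT 3, and 152, 136 and 228 CPM in KO 1 to KO 3. It rose by 2.25 on the log2 scale (SE 0.23, edgeR adjusted p = 0.000522). Its relative Nfkbid rose by 1.62 (SE 0.18, adjusted p = 0.000752), the NF-kappaB subunit gene Rel by 2.45 (SE 0.34, adjusted p = 0.00176) and the transcription factor gene Irf4 by 1.75 (SE 0.11, adjusted p = 0.000101).

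Without WT 3, Tnfrsf4, the gene of the costimulatory receptor OX40, fell by 2.14 (SE 0.14, edgeR adjusted p = 0.000106). Gata3 fell by 0.75 in that fit (SE 0.07, adjusted p = 0.000435). With all 6 libraries the log2 differences were -1.73 for Tnfrsf4 (SE 0.51) and -0.56 for Gata3 (SE 0.22), both at an edgeR adjusted p of 0.342. Over all 6 libraries DESeq2 passed Tnfrsf4 (adjusted p = 0.0343). Icos, at 88.0 to 104 CPM in all 6 libraries, did not pass without WT 3 (-0.14, SE 0.09, edgeR adjusted p = 0.288). Egr1 had 93.1 CPM in WT 1, 94.7 in WT 2 and 95.4 in KO 3, but 27.0 to 31.3 CPM in the other 3 libraries. It did not pass without WT 3 (edgeR adjusted p = 0.261) and passed without both libraries numbered 3 (1.55e-06). Of the 6 tested targets with a stem-loop shown above, 4 rose (Nfkbid, Nfkbiz, Rel and Tnf), Tnfrsf4 fell and Icos did not pass. Of the 5 tested targets without one, 2 rose, 1 fell and 2 did not pass, where 33.9% of all genes passed. In CPM, WT 3 and the KO libraries all lay above WT 1 and WT 2 for 6 listed targets and below them for 3 (Tnfrsf4, Gata3 and Icos), 9 of 11 against 57.8% of all genes. That split of the libraries was picked from these same data, and a link to the level of Zc3h12a was not tested. All targets were read from the same libraries, so they are not independent of each other.

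**Figure D5:**
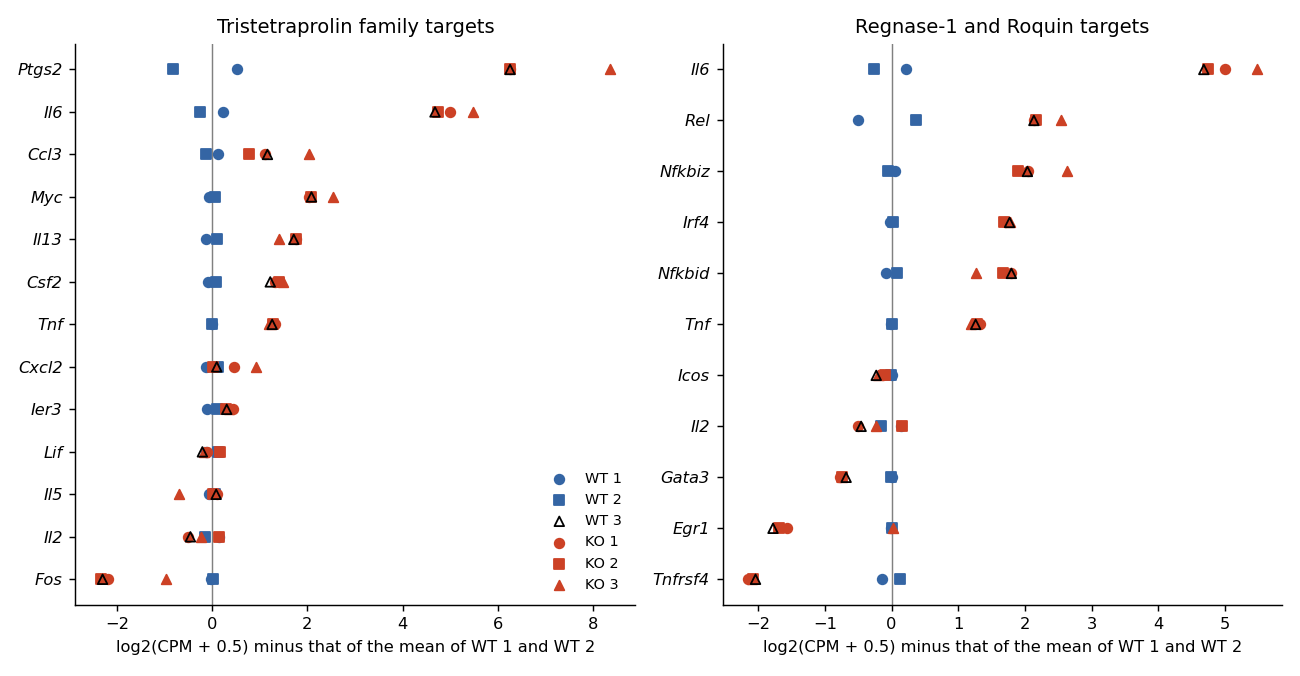
Difference in log2(CPM + 0.5) of each tested target from the mean of the libraries labelled WT 1 and WT 2, by library (blue WT 1 and WT 2, black open triangles WT 3, red KO), ordered by fitted difference. WT 3 lies among or next to the red points for Il6, Myc, Tnf, Nfkbiz and Tnfrsf4, and Il6, Il2 and Tnf appear in both panels.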

How the data were processed

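Each gene has an estimated count per library, as deposited by the authors, and a normalized value. On testing, that deposited signal was the estimated count with 1 added, over a single factor for each library. CASAVA 1.8.2, Partek, STAR and the build mm10 are named, without role or order, per the submitters' processing notes. Between 47.1% and 48.5% of estimated counts in a library were whole (within 1e-06), and the sources used here do not say how shared reads were divided. Estimated counts were rounded. The test was edgeR 4.0.16 under R 4.3.3 (TMM, filterByExpr, robust glmQLFit, glmQLFTest, no covariate), with Benjamini-Hochberg adjustment over all tested genes. SE is the size of the log2 difference divided by the square root of F. DESeq2 1.42.0 and limma 3.58.1 were alternatives. Scripts were tested on simulated data. CPM per kb uses the length of the principal GENCODE vM21 transcript.

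Groups come from sample titles. The 8 genes, the gene lists and the tests were chosen with earlier results of these data known. Named genes were the 8, Atg5, the 4 with the lowest p over all 6 libraries in each list (mean log2 CPM of at least 1), any listed target, and the 3 nearest patterns to the 2 genes with the widest range, of which 1 is not reported here. Others named (Hnrnpd, Nynrin, Cnot6, Cnot11, Dcp1a, Edc3, Exosc2, Exosc9, Dusp1, Ppp2r1a, Mapkapk2, Parn, Dis3l, Skiv2l, Ttc37, Wdr61) were chosen after their values were seen. The lists were other binding proteins, decay machinery, upstream genes, both kinds of target, and markers of ILC2s and 7 other cell types. Intervals and floors cover counting error only.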

Additional observations from a re-analysis of the deposited data

How the results depend on the processing

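Over all 6 libraries, the alternative scalings in edgeR, both filters, the non-robust dispersion, limma-voom and limma-trend passed 0 genes. DESeq2 passed 323 genes, 15 higher and 308 lower, of which 0 were among the 7 decay factors with an adjusted p (Zc3h12a had none), 1 was in the decay machinery (Cnot6l) and 1 was a stem-loop target (Tnfrsf4). Leaving out 1 library gave 0 to 4991 genes by edgeR. DESeq2 and limma-voom, also run without WT 3 as alternatives chosen after seeing the data, passed 5668 and 5184. In these fits 0 to 4 of the 8 decay factors passed, 0 to 5 other binding proteins, 0 to 20 genes of the machinery, 0 to 7 upstream genes (4 by edgeR, 5 by limma-voom), 0 to 9 AU-rich targets (7 by limma-voom) and 0 to 8 stem-loop targets. Every count above 0 in them came from leaving out WT 3. Leaving out both libraries numbered 3 passed 6505 genes, 4 decay factors, 7 binding proteins, 25 of the machinery, 10 upstream genes, 9 AU-rich and 9 stem-loop targets. The cause was not tested.

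These log2 differences changed sign, and none passed a test in any fit. Zfp36 ran from -0.0345 to 0.17 over the libraries left out, with -0.0597 (DESeq2) and -0.0332 (limma-voom) without WT 3, and -0.13 without both libraries numbered 3. Zfp36l1 ran from -0.0707 to 0.0491, Il2 from -0.62 to 0.31, Il5 from -0.32 to 0.0296 and Lif from -0.11 to 0.14. Dis3l ran from -0.0159 to 0.11, with -0.0017 at 2 CPM in 3 libraries and -0.0169 by DESeq2 without WT 3. Without both numbered 3, Rc3h2 was at -0.0583 and Il5 at 0.0617. Lif was at -0.0015 with no filter, -0.003 with 2 CPM in 3 libraries, and -0.0494 (DESeq2) and -0.0241 (limma-voom) without WT 3. With the replicate number as a block 0 genes passed. Deviations of same-numbered libraries correlated at -0.04, 0.02 and -0.01 across genes, so the numbers do not show pairs. Depth limits Zc3h12d, at 3 to 13 counts in 4 libraries.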
